A study of Homo sapiens with 12 samples.

Results

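The BCL2 family sets whether a cell commits to death through its mitochondria, and 10 of its genes were followed here in RCH-ACV, an established human B-cell precursor acute lymphoblastic leukemia (ALL) line that expresses the pre-B-cell receptor. They were chosen by symbol, as the guards BCL2, BCL2L1, MCL1 and BCL2A1, the BH3-only genes BCL2L11, BMF, BBC3 and PMAIP1, and the pore formers BAX and BAK1. Of these 10 genes, 9 had a row in both clone tables, among 15582 genes that the tables share. No level is given here for BCL2A1. The lowest value listed for any gene was 1.13 in clone 2 and 2.52 in clone 1.

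RNA-seq had been done on 12 libraries, 3 in each of 4 groups. The groups were dasatinib-resistant cells of clone 2, dasatinib-resistant cells of clone 1, dasatinib-sensitive cells of clone 2 and dasatinib-sensitive cells of clone 1. Resistant cells had been cultured in increasing dasatinib, up to 1 µM, and sensitive cells in vehicle with 0.1% DMSO. Dasatinib inhibits SRC and ABL family kinases. The resistant sublines of both clones had been made independently, and the replicates were RNA isolations of a subline at separate times. The values used here are the authors' mean normalized counts, that is, read counts divided by a size factor for each library and averaged over the 6 libraries of a clone, with resistant and sensitive cells together. No level per library or per condition was used, so a value has no SD, no test was possible and resistant cells are not compared with sensitive cells. A difference between clones can lie in either condition or in both. The 2 tables were normalized separately, and the library titles put all libraries of clone 2 in a set lettered B and all of clone 1 in a set lettered A. Effects of the clone, of its table and of its set therefore cannot be told apart. In such bulk samples, fewer cells with a transcript and less of it per cell cannot be told apart.

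The guards hold the pore formers in check at the outer mitochondrial membrane. BH3-only proteins bind the guards, and some also bind BAX and BAK directly, through a short helix called the BH3 domain. When BAX and BAK are freed and assemble, the membrane opens, cytochrome c leaves and caspases are activated. Normal B-cell precursors depend on such guards for survival, and BIM, the product of BCL2L11, helps to remove developing B cells that lack survival signals.

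The coding stretch of the BH3 domain is shown because it is the feature that joins the 3 roles. In the translated coding sequence of 1 transcript per gene (GENCODE 29, GRCh38), a leucine followed by 3 residues of any kind, a glycine or alanine and an aspartate was found once in each of the 9 genes with values. It was not found in the chosen BCL2A1 transcript, which says only that these residues do not follow each other there. The same search matched 24.8% of 19579 protein-coding sequences, so a match is a description and not a domain call. Each stretch below has the codons of that leucine and that aspartate in capitals, with 5 codons on each side of the motif.
BCL2, chr18:63318346-63318393, minus strand, exon 1 of 2: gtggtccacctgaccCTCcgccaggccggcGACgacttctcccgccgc
BCL2L1, chr20:31721919-31721966, minus strand, exon 2 of 3: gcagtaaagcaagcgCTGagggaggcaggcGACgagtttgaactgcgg
MCL1, chr1:150578862-150578909, minus strand, exon 1 of 3: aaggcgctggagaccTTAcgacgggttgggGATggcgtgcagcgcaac
BCL2L11, chr2:111150088-111150135, plus strand, exon 4 of 5: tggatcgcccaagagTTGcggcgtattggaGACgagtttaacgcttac
BMF, chr15:40104192-40104239, minus strand, exon 4 of 5: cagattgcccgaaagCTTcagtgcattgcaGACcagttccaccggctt
BBC3, chr19:47226576-47226623, minus strand, exon 3 of 4: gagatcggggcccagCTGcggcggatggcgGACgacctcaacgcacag
PMAIP1, chr18:59902658-59902705, plus strand, exon 2 of 2: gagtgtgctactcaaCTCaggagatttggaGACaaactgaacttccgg
BAX, chr19:48955772-48955819, plus strand, exon 3 of 6: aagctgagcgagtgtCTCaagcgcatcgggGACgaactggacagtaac
BAK1, chr6:33575384-33575431, minus strand, exon 4 of 6: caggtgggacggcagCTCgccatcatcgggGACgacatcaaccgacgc

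In each of these 9 genes the stretch lay within a single exon. The encoded proteins ranged from 54 residues for PMAIP1, whose product is NOXA, to 350 residues for MCL1. The chosen BCL2L11 transcript encodes 138 residues, and other transcripts of that gene were not separated in the counts.

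The libraries carried the markers of a B-cell precursor. All 11 such markers had values in both clones, between 67.0 and 14912 mean normalized counts in clone 2 and between 67.7 and 13087 in clone 1, with MME, which encodes CD10, lowest in clone 2 and in clone 1. Of 5 T cell markers, 1 was listed in clone 2, at 2.34, and 0 in clone 1. Of 3 erythroid markers, 0 were listed in either clone. Of 5 myeloid markers, 4 were listed in both clones. Among these CSF1R reached 768 in clone 2 and 615 in clone 1, while MPO, LYZ and CD14 stayed between 2.82 and 17.1. The means of all rows summed to 24561485 in clone 2 and 19108037 in clone 1, which stand in for the depth, since the total of each library is unknown. The median shared gene had a 1.29 times higher value in clone 2, or 0.37 on the log2 scale. Ratios between the clones are therefore given after division by this median ratio, unless called as deposited.

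Among the guards, MCL1 had the highest level per kilobase of transcript in both clones, and BCL2 had the lowest ratio of clone 2 over clone 1. MCL1 encodes a short-lived guard whose level depends on constant synthesis. Its mean normalized count was 6242 in clone 2 and 4399 in clone 1, a log2 ratio of 0.13. BCL2L1 encodes BCL-XL, and its mean normalized counts were 1193 in clone 2 and 948 in clone 1. Its log2 ratio of -0.04 lay close to that of the median gene, and it was 0.33 as deposited. BCL2, which encodes the founding guard of the family, had 1577 in clone 2 and 1734 in clone 1. It was the 1 member with the lower deposited value in clone 2, and its log2 ratio was -0.51, or -0.14 as deposited. In other words, BCL2 was at 0.704 times the level that the median gene would give in clone 2. Of 14177 genes compared, which had a mean of 10 or more over both clones, 460 had a lower ratio than BCL2. Of the 12148 genes with at least 50 mean normalized counts, 228 did. The value of BCL2 still lay inside the 1.5-fold limit, which is 0.58 on the log2 scale.

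**Figure D1:**
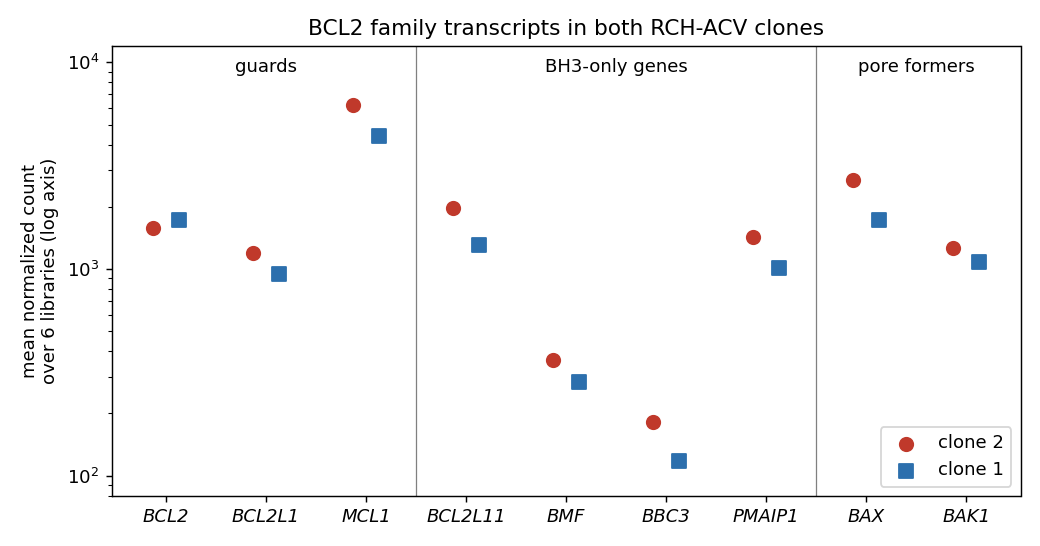
Mean normalized count over the 6 libraries of a clone (log axis) for the 9 members with values, by role, with clone 2 as red circles and clone 1 as blue squares. BCL2 is the only member whose clone 2 point (1577) is below its clone 1 point (1734), and counts are not divided by transcript length, so heights of different genes are not compared.

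The BH3-only genes spanned a wide range of levels, with BCL2L11 and PMAIP1 above BMF and BBC3 per kilobase in both clones. BCL2L11 encodes BIM, which binds every major guard and can activate BAX and BAK directly. Its mean normalized count was 1969 in clone 2, against 1304 in clone 1, a log2 ratio of 0.22. PMAIP1 encodes NOXA, which binds chiefly MCL1 and is a target of p53. It gave 1434 in clone 2 and 1008 in clone 1, a log2 ratio of 0.14. PMAIP1 and MCL1 kept almost the same proportion, with a PMAIP1 to MCL1 count ratio of 0.230 in clone 2 and 0.229 in clone 1. BBC3 encodes PUMA, another p53 target that binds all the guards. Its values were 182 in clone 2 and 118 in clone 1, a log2 ratio of 0.25. BMF encodes a BH3-only protein linked to the cytoskeleton. Its values were 364 in clone 2 and 282 in clone 1, and its log2 ratio was -0.01. That value of BMF changed sign to 0.00 (0.0031) with scaling by table sums and was 0.37 as deposited, so it has no direction.

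The pore formers differed from each other in the between-clone ratio. BAX, which encodes the effector that moves from the cytosol to mitochondria, had 2704 mean normalized counts in clone 2 and 1734 in clone 1. Its log2 ratio of 0.27 was the highest of the 9 members, and 12857 of 14177 genes had a lower one. BAX and BCL2 are the extremes of 9 values, so their ranks among all genes are a description only. BAK1 encodes the effector that resides at the mitochondrial membrane. It had 1257 in clone 2 and 1087 in clone 1, a log2 ratio of -0.16, which is 0.21 as deposited. The BAX to BAK1 count ratio was accordingly 2.15 in clone 2 and 1.60 in clone 1. The annotation lists 2 pseudogenes of BAK1, and reads that such copies share with it could not be placed from the tables, so the BAK1 level is uncertain to that extent.

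Ratios of one member to another within a table were compared between the clones. Their change between the clones depends on neither a scaling between tables nor a transcript length. The ratio within a clone is of counts not divided by length, so it does not rank one transcript above the other. These are proportions of transcripts, and no protein level was used. The MCL1 to BCL2 count ratio was 3.96 in clone 2 and 2.54 in clone 1. The BAX to BCL2 ratio was 1.71 in clone 2 and 1.00 in clone 1. The BCL2L11 to BCL2 ratio was 1.25 in clone 2 and 0.752 in clone 1. Each of the 8 other members was higher relative to BCL2 in clone 2 than in clone 1, by between 0.35 on the log2 scale for BAK1 and 0.78 for BAX, which follows from BCL2 having the lowest ratio of all. Of 4 ratios without BCL2, BAX to BAK1 moved most, by 0.43 on the log2 scale. That follows from BAX having the highest and BAK1 the lowest ratio of these 8 members. MCL1 to BCL2L1 was 5.23 in clone 2 and 4.64 in clone 1, and BCL2L11 to MCL1 was 0.316 in clone 2 and 0.296 in clone 1. No replicate spread stands beside these ratios.

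The members differed between the clones by less than 1.5-fold. No member (0 of 9) was past 1.5-fold in either direction, where 5.75% of 14177 compared genes were, so the members' count is near this background. By direction, 3.29% of genes were past 1.5-fold and higher in clone 2, and 2.45% were lower in clone 2, that is, 467 and 348 genes. As deposited, without the division, 1753 genes were higher and 129 lower. The members' log2 ratios ran between -0.51 and 0.27 with a median of 0.13, and 5 were above and 4 below the median gene, while as deposited 8 were higher in clone 2 and BCL2 was lower. The central 50% of all genes lay between -0.10 and 0.10. Outside it were BAX, BBC3, BCL2L11, PMAIP1 and MCL1 above, and BCL2 and BAK1 below. The central 90% of all genes lay between -0.38 and 0.44, and BCL2 was the only member of 9 outside that span. Such a span leaves out a share of all genes by its definition. As deposited, 3 of 9 members were past 1.5-fold, all higher in clone 2, where 1753 of 14177 compared genes were higher. These members were BAX at 1.56, BBC3 at 1.54 and BCL2L11 at 1.51, set against 1.29 for the median gene.

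**Figure D2:**
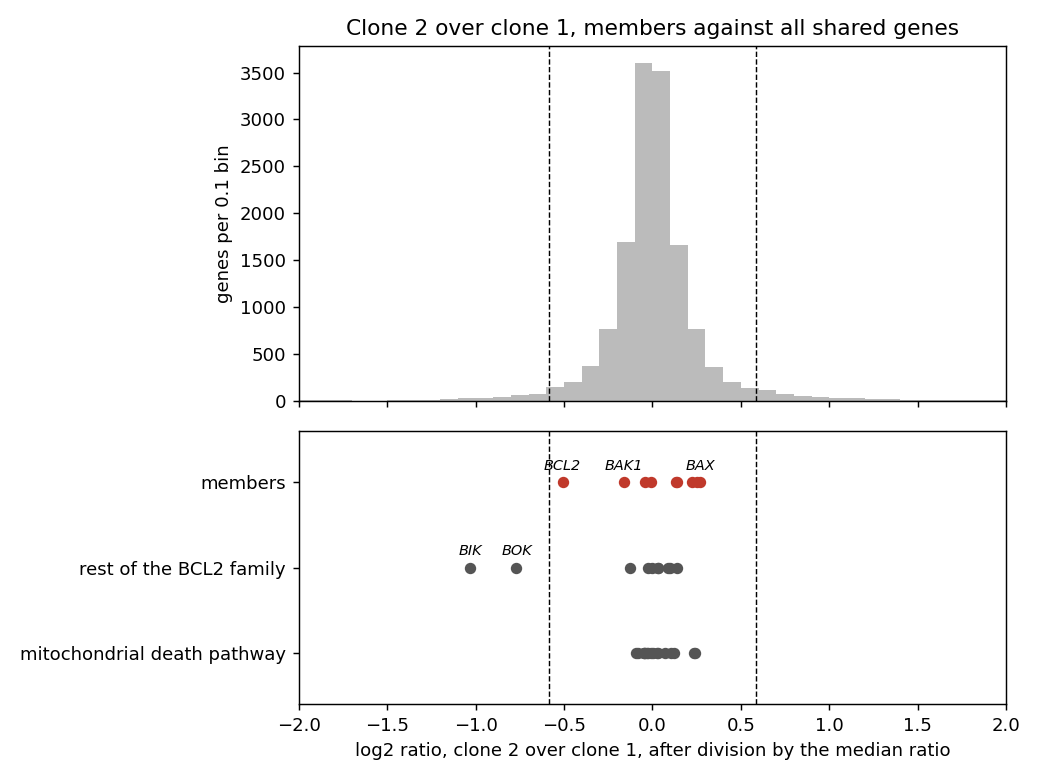
Upper panel, number of genes per bin of the log2 ratio of clone 2 over clone 1 after division by the median ratio (14177 genes, drawn between -2 and 2); lower panel, the same ratio for single genes, with members in red and both further lists in grey. Dashed lines mark 1.5-fold (0.58). All 9 members lie between the lines, with BCL2 nearest to one at -0.51, and BIK and BOK lie outside at -1.03 and -0.77.

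The place of each gene in the genome was set beside its ratio, with the 10 nearest compared genes on each side, a check added after the ratios had been seen. BCL2 is on chromosome 18 (chr18:63123346-63320128, minus strand, GRCh38), where the 20 neighbours had a median log2 ratio of 0.04 and 1 of them was lower than BCL2. The adjoining compared genes PHLPP1 and KDSR gave -0.03 and 0.07, and the median over the 191 compared genes of chromosome 18 was 0.00 (0.00325). PMAIP1 lies on the same chromosome and gave 0.14. Of the 20 neighbours of BCL2, 7 were below the median gene, and the lowest gave -0.68. Why the BCL2 ratio was low was not tested. BAX and BBC3 both lie on chromosome 19, where the median over 1028 genes was -0.02. BAX exceeded 18 of its 20 neighbours, and BBC3 exceeded 19 of 20. BAK1, on chromosome 6, was above 1 of its 20 neighbours.

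Levels of different genes were compared per kilobase of transcript, and this gave BAX first and BMF last in both clones. BAX had 3410 mean normalized counts per kilobase in clone 2 and 2186 in clone 1, which placed it 426th in clone 2 and 515th in clone 1 of 13438 genes with a coding transcript. MCL1 followed with 1587 per kilobase in clone 2 and 1119 in clone 1. BCL2L11 came next with 1294 in clone 2 and 857 in clone 1. Below these were PMAIP1 (736 per kilobase in clone 2 and 518 in clone 1), BAK1 (588 in clone 2 and 509 in clone 1) and BCL2L1 (457 in clone 2 and 363 in clone 1). BCL2 had 211 per kilobase in clone 2 and 232 in clone 1. BBC3 gave 98.8 in clone 2 and 64.1 in clone 1, and BMF gave 77.6 in clone 2 and 60.3 in clone 1. All 9 members held the same place in both clones, and 5 of them were among the highest 25% of genes per kilobase in both. Which neighbours in this order differ beyond their spread cannot be said from pooled means.

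**Figure D3:**
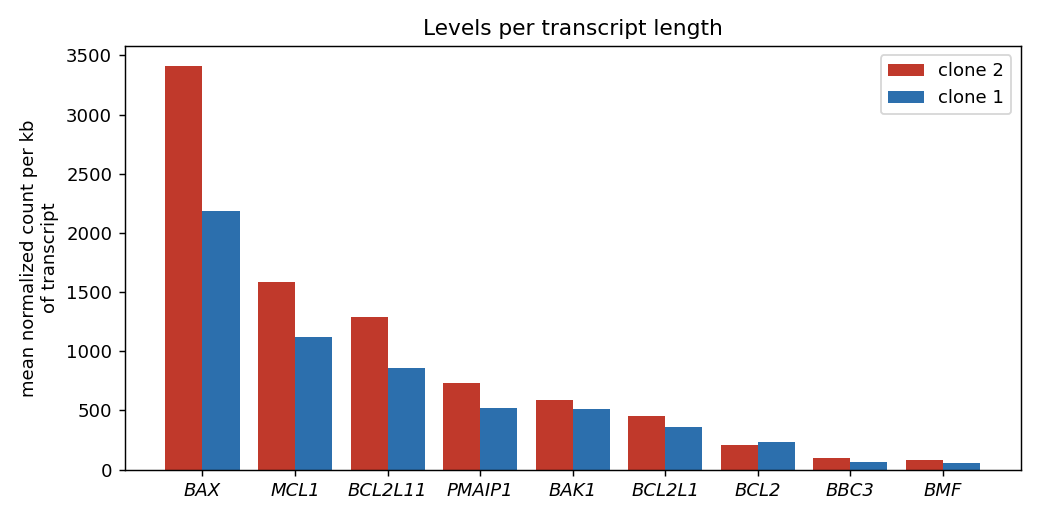
Mean normalized count per kilobase of the chosen transcript for the 9 members, clone 2 in red and clone 1 in blue, sorted by clone 2, on an axis that starts at 0. BAX leads at 3410 in clone 2 and 2186 in clone 1, and BBC3 and BMF are lowest, at 98.8 or less in each clone.

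Within each role, 1 member held most of the level per kilobase with the transcript chosen, but for the BH3-only genes that member depended on the length. MCL1 made up 70.4% of the 3 guards with values in clone 2 and 65.3% in clone 1, and BCL2 9.37% in clone 2 and 13.6% in clone 1. Over the 4 length choices the BCL2 share ran between 6.46% and 22.3% in clone 2 and between 9.49% and 30.3% in clone 1. BCL2L11 made up 58.6% of the BH3-only genes in clone 2 and 57.2% in clone 1, and PMAIP1 33.4% in clone 2 and 34.5% in clone 1. PMAIP1 led instead with coding length, at 60.4% in clone 2 and 61.4% in clone 1, and with exon union length, at 58.5% in clone 2 and 59.4% in clone 1. BAX made up 85.3% of the pore formers in clone 2 and 81.1% in clone 1. These were its highest shares over the 4 length choices, and the lowest were 68.3% in clone 2 and 61.5% in clone 1. The transcript length chosen matters to this order. With coding length, exon union length or no length, MCL1 stayed in the first or second place and BBC3 and BMF in the last 2 places of the 9 in clone 2, while PMAIP1 moved between places 1 and 5, BAX between 1 and 4 and BCL2L11 between 3 and 6. PMAIP1 was first with coding length, and MCL1 with no length.

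Among other genes of the family, BIK and BOK were lower in clone 2, and no gene of the death pathway list was past 1.5-fold. Of 13 further BCL2 family genes, 12 had a row in clone 2 and 11 in clone 1, and 10 were abundant enough to be compared. Of these, 0 were past 1.5-fold and higher in clone 2, and 2 were lower, where 3.29% of all compared genes were higher and 2.45% lower. These were BIK, a BH3-only gene, with 43.5 mean normalized counts in clone 2 and 68.6 in clone 1 (log2 ratio -1.03), and BOK, a relative of BAX and BAK1, with 13.4 in clone 2 and 17.6 in clone 1 (log2 ratio -0.77). As deposited, BIK was still past 1.5-fold and BOK was not, and BOK would not be compared with a minimum of 50. The counting error of such low values could not be measured from pooled means. The median log2 ratio of the 10 was 0.01. BID, which links death receptors to mitochondria, gave 546 per kilobase in clone 2 and 429 in clone 1, the highest of this list, and BCL2L14 was the lowest of those with values in both clones, with 1.58 per kilobase in each. No value is given here for HRK. Of 17 genes of the mitochondrial death pathway, 16 had values in both clones. None of these was past 1.5-fold, where 5.75% of all compared genes were, so this count is near the background. Their log2 ratios lay between -0.09 and 0.24, with a median of 0.00 (-0.00253). VDAC1, a channel of the outer mitochondrial membrane, was highest of that list at 7827 per kilobase in clone 2 and 5147 in clone 1. XIAP, a caspase inhibitor, was lowest in clone 2 among the genes with a level per kilobase, with 163, against 130 in clone 1. APAF1, the scaffold of the apoptosome, gave 182 in clone 2 and the lowest level of clone 1, 129.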

How the data were processed

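Stranded mRNA libraries had been made from 12 RNA isolations. In their processing notes the submitters list hg19 and, with no role or order, DESeq2, FastQC 0.10.1, bedtools 2.19.0, Picard 1.107, SAMtools and BWA (0.7.7-r441 and 0.6.2-r126). The gene annotation, the read counter and the use of strand remain not given in the sources used here. Levels of genes that overlap or have an antisense partner are therefore uncertain. Each clone table holds a signal that the authors deposited, the mean over 6 libraries of counts divided by size factors. It also holds 6 numeric columns of the authors' own comparison of resistant with sensitive cells (fold change, standard error, statistic and p-values), which were not used. The planned test on counts per library was therefore not made. The depth of single libraries is unknown, so no counting interval is given. Repeated symbols (2 rows in each table) were left out, and date-like symbols (22 in clone 2, 21 in clone 1) were not renamed.

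The ratio of clone 2 over clone 1 was divided by its median over 14177 shared genes whose mean over both clones was 10 or more. A gene counted as past the fold beyond 1.5-fold, as a description with no test. Lengths came from GENCODE 29 (GRCh38), with 1 transcript a gene (coding first, then APPRIS rank, then length), for 94.9% of 15582 shared genes, and no coordinate was taken from the tables. All 10 members were named, and of the other lists each gene past 1.5-fold and the highest and lowest per kilobase. The members and lists were chosen with earlier results of these data known. The ratio computation was tested on simulated data. Python 3.11.15, pandas 2.3.3, numpy 2.4.6 and matplotlib 3.10.9 were used.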

Additional observations from a re-analysis of the deposited data

How the results depend on the processing

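No paired analysis was possible because the tables hold no values per library. For the same reason no replicate was left out, and no test with another tool was run. The count of members past 1.5-fold was 0 in each direction under table sums, no minimum, a minimum of 50, a pseudocount of 1 and a 2-fold limit, and only with no scaling were 3 members higher in clone 2. Most of these settings could hardly change that count. The lowest member value was 118, so neither minimum removed a member, and a 2-fold limit cannot call more than a 1.5-fold limit. Table sums scaled by 0.36 on the log2 scale, close to 0.37 for the median. Of the 14177 genes compared, no scaling gave 1753 higher and 129 lower in clone 2, against 467 and 348 with median scaling. A minimum of 50 gave 239 and 169, a 2-fold limit gave 167 and 119, and no minimum gave 626 higher and 688 lower genes, so that lower genes were then the more numerous. The median log2 ratio of the members was 0.14 with table sums (0.1425), no minimum (0.1379) or a pseudocount (0.1356) and 0.50 with no scaling (0.5047). Of 9 places in the order per kilobase in clone 2, 2 were kept with coding length, 1 with no length and 5 with exon union length, which was added after seeing the data. MCL1 made up between 60.4% and 73.5% of the guards in clone 2 and between 52.6% and 69.2% in clone 1 over these lengths, and BCL2L11 between 27.7% and 58.6% of the BH3-only genes in clone 2 and between 26.5% and 57.2% in clone 1. BCL2 kept the lowest ratio of the members under each scaling, as its order does not depend on it.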
